A study of Mus musculus with 12 samples.

Results

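Potassium channel genes are described here as the 94 protein-coding mouse genes whose symbol starts with Kcn, of 21883 protein-coding genes placed on a chromosome. They were chosen by symbol alone, with earlier results of these data known. Every peak that overlapped such a gene or the 5 kb on either side of it was assigned to it. Potassium channels let potassium ions leave or enter a cell and set its resting voltage. Voltage-gated channels open on depolarisation, inward rectifiers pass current best below the potassium equilibrium, and two-pore-domain channels carry the background leak. A further family opens with calcium, sodium or pH, and auxiliary subunits change the gating or the surface delivery of the pores. Many of these genes are best known from neurons and heart muscle, and calcium-activated potassium currents have also been recorded in bone-forming cells.

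The peaks were called on sequenced chromatin immunoprecipitates of MC3T3-E1, a pre-osteoblast line from mouse, made with an antibody against MACF1, a cytoskeletal protein that joins microtubules to actin. The design compares where that antibody recovers DNA in MACF1 knockdown and in control cells. Both groups had 3 immunoprecipitates, labelled 1, 2 and size3, each with its own input library, and the sources used here do not explain the name size3. More than 1 antibody lot is listed without saying which library it served, and neither the way the knockdown was made nor separate cultures are stated, so a p-value between groups measures only the spread between these libraries.

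Knockdown immunoprecipitates held 5575205 to 18454330 reads after duplicate removal and lists of 4513 to 21398 peaks. Control immunoprecipitates held 10698067 to 33085606 reads and lists of 198 to 2196 peaks. The redundant rate, the share of duplicate reads, was 0.51, 0.65 and 0.02 in knockdown 1, 2 and size3, and 0.25, 0.16 and 0.01 in control 1, 2 and size3. The part of depth and duplicates in the counts below was not tested. A binding assay holds no expression values, so neither the osteoblast label nor the loss of Macf1 was checked, and a peak at a channel gene says nothing of whether the channel is made.

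Knockdown libraries 1 and size3 had a peak at most potassium channel genes, while control libraries had peaks at few. In knockdown 1, 62 of the 94 genes had at least 1 peak (66.0%, 95% Wilson interval 55.9 to 74.7), beside 43.7% of all protein-coding genes. In knockdown 2, 14 genes had one (14.9%, interval 9.08 to 23.5), beside 7.95% of all genes, and in knockdown size3 52 genes had one (55.3%, interval 45.3 to 65.0), beside 35.4%. Every knockdown library thus exceeded the share of all genes, by most percentage points in knockdown 1. Among the control libraries, 3 genes had a peak in control 1 (3.19%, interval 1.09 to 8.97), beside 1.38% of all genes, and 12 in control size3 (12.8%, interval 7.46 to 21.0), beside 5.49%. Control 1 and control size3 thus also exceeded the share of all genes. Control 2 had no peak at any of the 94, which allows up to 3.19% of genes, beside 0.315% of all genes. These intervals and limits cover counting error only.

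The number of genes with a peak averaged 42.7 ± 25.3 in knockdown and 5.00 ± 6.25 in control libraries (SD, n = 3 each). The difference of 37.7 genes had an exact two-sided permutation p of 0.1, the smallest that 20 assignments of 3 and 3 libraries allow. The groups did not overlap, but only narrowly, since the 14 genes of knockdown 2 stood beside the 12 of control size3. Within a label the knockdown library exceeded its control by 59, 14 and 40 genes for labels 1, 2 and size3. The difference was small at equal list lengths: among the 198 best-scored peaks of each list, 5, 0 and 1 genes had a peak in knockdown 1, 2 and size3, against 0, 0 and 1 in control 1, 2 and size3 (difference 1.67, exact permutation p = 0.7).

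Peaks at these genes numbered 148, 26 and 114 in knockdown 1, 2 and size3, against 3, 0 and 13 in control 1, 2 and size3. On the log2(peaks + 1) scale the groups averaged 6.27 ± 1.33 in knockdown and 1.94 ± 1.90 in control (SD, n = 3 each), a difference of 4.34 (exact permutation p = 0.1) that was 0.86 at equal list lengths (exact permutation p = 0.7). As a share of each list, however, peaks at potassium channel genes were 0.692%, 0.576% and 0.648% in the knockdown libraries and 0.389%, 0% and 0.592% in the control libraries. The share averaged 0.639% ± 0.0583 in knockdown and 0.327% ± 0.301 in control (SD, n = 3 each, exact permutation p = 0.2). Control size3 lay inside the knockdown range of this share, and the 198 peaks of control 2 allow a share of up to 1.52%.

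Gene length ran alongside these counts. Potassium channel genes spanned a median of 32.7 kb, against 17.2 kb over all protein-coding genes, and 19.1% of them reached 200 kb, against 4.52% of all. The shortest was Kcne1l, at 1.45 kb, and the longest Kcnip4, at 1136 kb. All 18 genes of 200 kb or more had a peak in at least 1 library. Across the 94 genes, Spearman's rho between length and peak number was 0.450, 0.500 and 0.487 in knockdown 1, 2 and size3 and 0.267 and 0.369 in control 1 and size3, given as a description across genes that share libraries. Over all protein-coding genes the same rho was 0.412, 0.287 and 0.378 in the knockdown libraries and 0.132 and 0.192 in those control libraries.

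**Figure D1:**
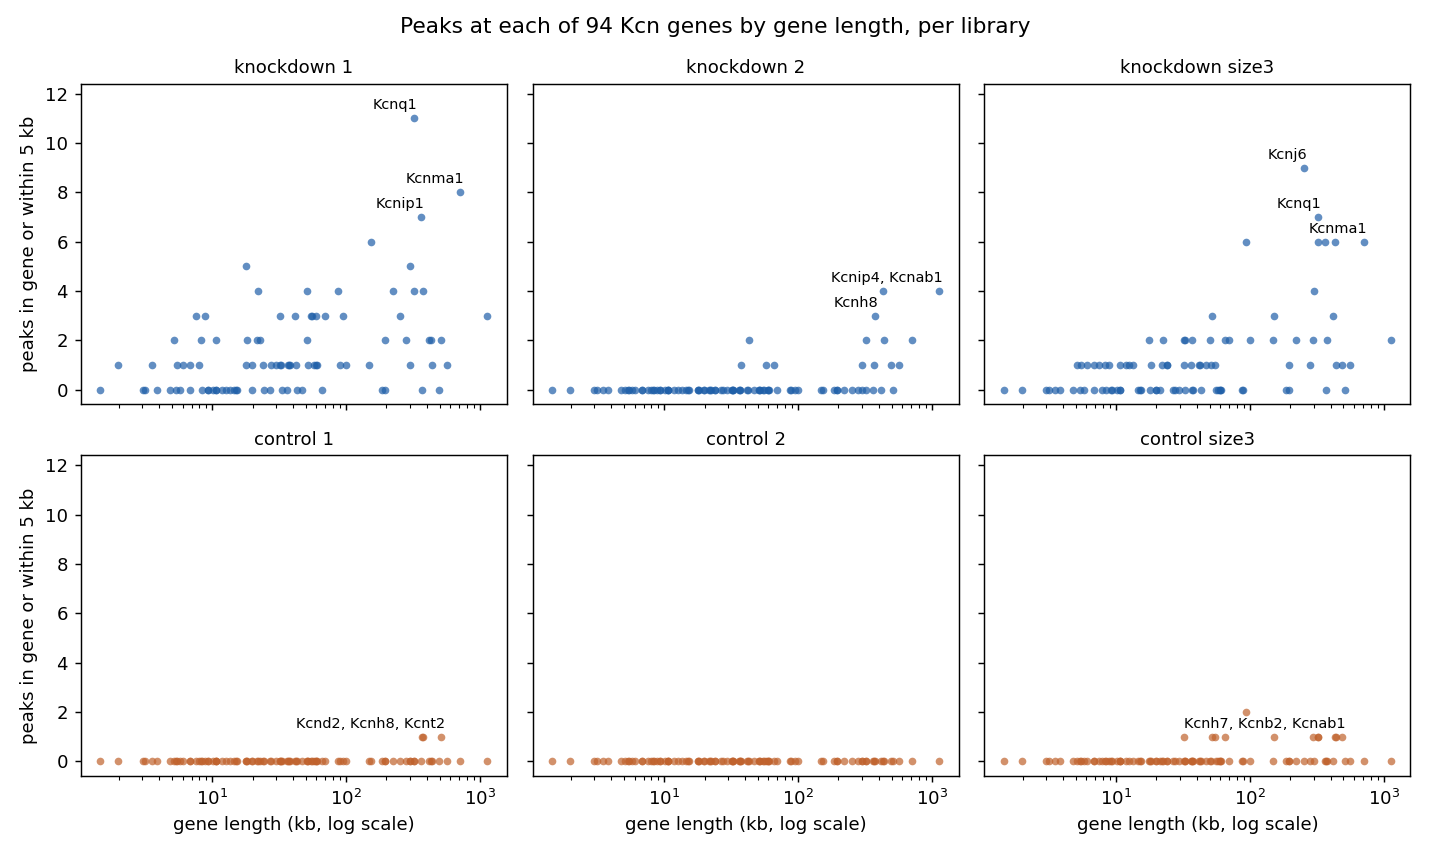
Number of peaks in the gene or within 5 kb (vertical axis) against gene length in kb (horizontal axis, log scale) for each of the 94 Kcn genes, 1 panel per library, with names for the 3 genes of 200 kb or more that have most peaks (ties by length). Knockdown 1 reaches 11 peaks at Kcnq1 and knockdown size3 reaches 9 at Kcnj6, knockdown 2 has peaks mostly at long genes, and no control library has more than 2 at a gene.

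Within length classes, the share of potassium channel genes with a peak stayed above that of other genes in knockdown 1, where it was 47.6% against 25.6% for genes under 10 kb, 54.3% against 45.5% for 10 to 50 kb, 85.0% against 65.9% for 50 to 200 kb and 88.9% against 83.0% for 200 kb and over. In knockdown size3 it was 33.3% against 19.1%, 51.4% against 36.5%, 55.0% against 55.8% and 88.9% against 74.3% for the same classes. Short channel genes thus stood furthest above other genes of their length in knockdown 1, and the 50 to 200 kb class showed no excess in knockdown size3. In knockdown 2 no gene under 10 kb had a peak, and the share was 5.71% against 5.55% for 10 to 50 kb, 10.0% against 17.5% for 50 to 200 kb and 55.6% against 43.0% for 200 kb and over, so its excess lay in the longest class. In control size3 no gene under 10 kb had one. The share there was 2.86% against 4.68% for 10 to 50 kb and 25.0% against 10.2% for 50 to 200 kb. For 200 kb and over it was 33.3% against 24.3%, so the excess in control size3 lay above 50 kb. All 3 genes with a peak in control 1 were of 200 kb or more.

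**Figure D2:**
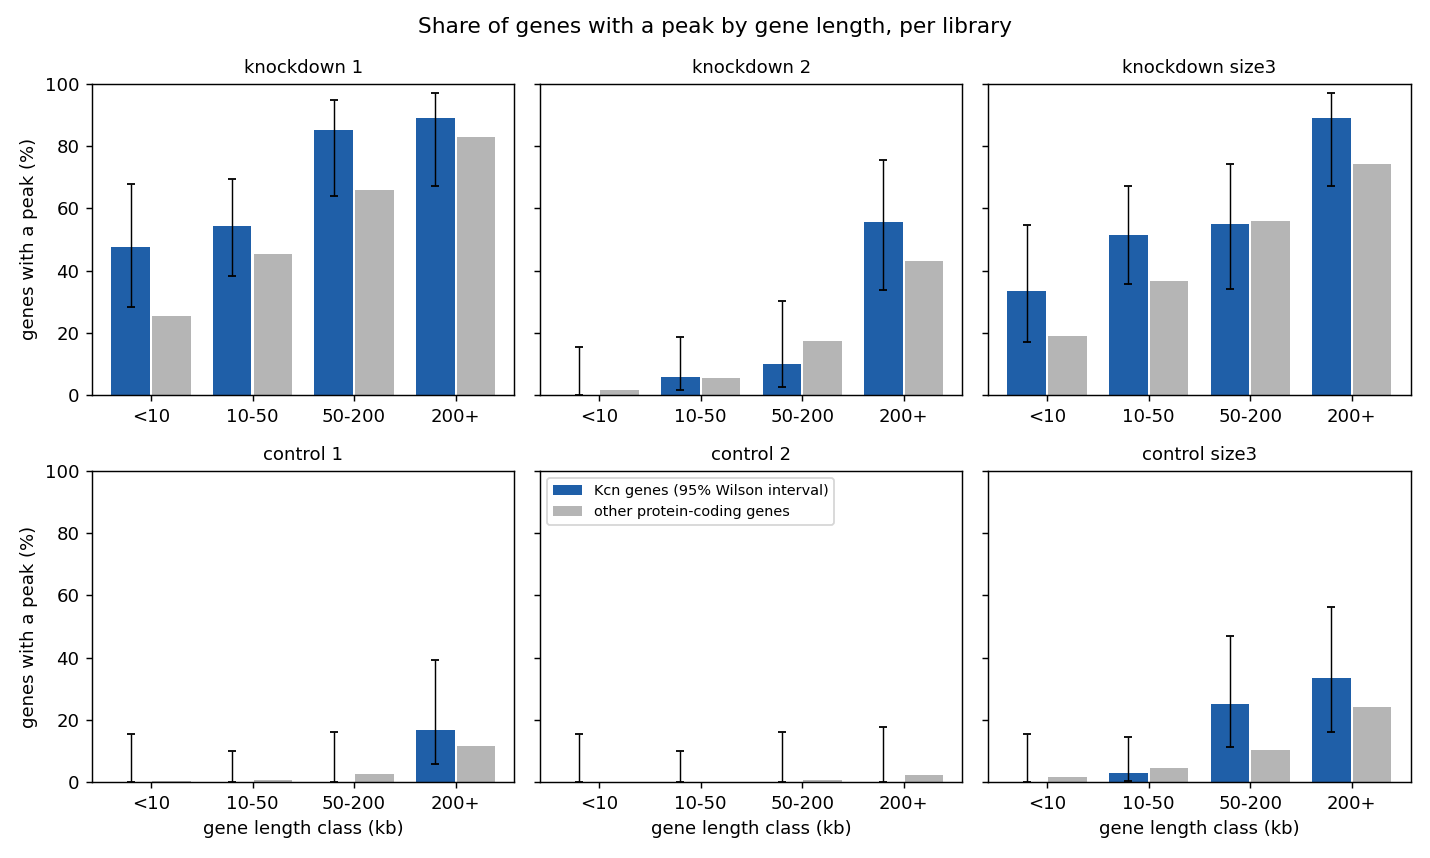
Percentage of genes with a peak (vertical axis) in 4 length classes (horizontal axis, kb), for Kcn genes (blue, 95% Wilson interval as bars) and other protein-coding genes (grey), 1 panel per library. In knockdown 1 the share rises with length for both kinds of gene, and there the Kcn bars stand above the grey bars in every class, 47.6% against 25.6% in the shortest.

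Weighting the other genes to the length classes of the 94 brought them closer. After weighting, other genes had a peak in 52.5%, 14.4% and 44.0% of cases in knockdown 1, 2 and size3 and in 3.10%, 0.687% and 8.94% in control 1, 2 and size3. The share of potassium channel genes minus this weighted share was 13.4, 0.526 and 11.4 percentage points in knockdown 1, 2 and size3 and 0.0868, -0.687 and 3.82 points in control 1, 2 and size3. The excess averaged 8.43 ± 6.92 points in knockdown and 1.07 ± 2.41 points in control (SD, n = 3 each), a difference of 7.36 points (exact permutation p = 0.2) that was 1.55 points at equal list lengths (exact permutation p = 0.3). Knockdown 2 lay below control size3, so the groups overlapped. Points are not scaled to the weighted share, which differed widely between libraries. Relative to that share the excess was largest in control size3, at 12.8% beside 8.94%. In knockdown 1 and size3 it was 66.0% beside 52.5% and 55.3% beside 44.0%. Without weighting the excess was 16.4 ± 8.27 points in knockdown and 2.94 ± 3.93 points in control (exact permutation p = 0.2).

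Per unit of sequence the family as a whole lay below other genes in knockdown 1 and size3 and above them in knockdown 2. Peaks per Mb of gene and flank were 12.9, 2.24 and 9.81 at potassium channel genes in knockdown 1, 2 and size3, against 13.7, 1.75 and 10.9 at other genes. In control 1, 2 and size3 they were 0.258, 0 and 1.12 at potassium channel genes, against 0.293, 0.0589 and 1.13 at other genes. The density fell with length in knockdown 1 and size3. In knockdown 1 it was 48.1, 27.9, 19.2 and 7.51 peaks per Mb at channel genes of increasing length class, against 22.4, 19.8, 13.5 and 7.29 at other genes. In knockdown size3 it was 21.1, 18.9, 11.98 and 7.39 at channel genes, against 16.8, 15.2, 10.9 and 6.17 at other genes. The density in every class was therefore higher at channel genes in those libraries, while the total was lower. In knockdown 2 it was 0, 2.46, 0.958 and 2.63 at channel genes, highest in the longest class, against 1.13, 1.76, 2.04 and 1.64 at other genes. Genes of 200 kb or more held 68.7% of the sequence at channel genes and 33.8% at other genes.

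The peaks at these genes are set beside their whole lists by the authors' deposited values. Median fold enrichment over input was 4.39, 14.8 and 7.60 at channel genes in knockdown 1, 2 and size3, beside 4.98, 15.6 and 8.10 over the whole lists. In control 1 and size3 it was 5.71 and 8.88, beside 5.35 and 8.33. A median peak at these genes held 70, 8 and 17 reads in knockdown 1, 2 and size3, beside 46, 9 and 17 over the lists, so knockdown 2 combined the highest folds with the fewest reads. Its width was 1401, 376.5 and 671.5 bp, beside 990, 359 and 647 bp, so channel gene peaks of knockdown 1 were wider and held more reads than that list as a whole. The false discovery rate, obtained by swapping immunoprecipitate and input, was at most 5% for 143 of 148 peaks in knockdown 1, 0 of 26 in knockdown 2 and 63 of 114 in knockdown size3, and for none of the 16 control peaks. Those shares were 96.6%, 0% and 55.3%, beside 98.9%, 1.13% and 57.8% of the whole knockdown lists. Every peak at these genes in knockdown 2 had a rate of 100%.

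The share of members with a peak is given by family, beside the share of other genes weighted to the lengths of that family. Of the 40 voltage-gated pore genes, 28, 6 and 24 had a peak in knockdown 1, 2 and size3, against 2, 0 and 6 in control 1, 2 and size3. The knockdown shares were 70.0%, 15.0% and 60.0%, beside 54.9%, 16.3% and 46.3%. The 14 two-pore-domain genes, none of which reaches 200 kb, had 11, 0 and 9 members with a peak in the knockdown libraries and 0, 0 and 1 in the control libraries. In knockdown 1, 2 and size3 that was 78.6%, 0% and 64.3%, beside 45.6%, 7.81% and 37.0%. Of the 15 inward rectifier genes, 8, 1 and 6 had a peak in the knockdown libraries and none in any control library. Their knockdown shares of 53.3%, 6.67% and 40.0% stood beside 46.7%, 9.36% and 38.2%. The 8 genes gated by calcium, sodium or pH had 6, 2 and 5, against 1, 0 and 2 in the control libraries, with knockdown shares of 75.0%, 25.0% and 62.5% beside 67.2%, 24.1% and 57.9%. The 17 auxiliary genes had 9, 5 and 8, against 0, 0 and 3, with knockdown shares of 52.9%, 29.4% and 47.1% beside 50.9%, 15.1% and 42.7%. With 8 to 40 genes a family these are descriptions, and no difference between families was tested.

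**Figure D3:**
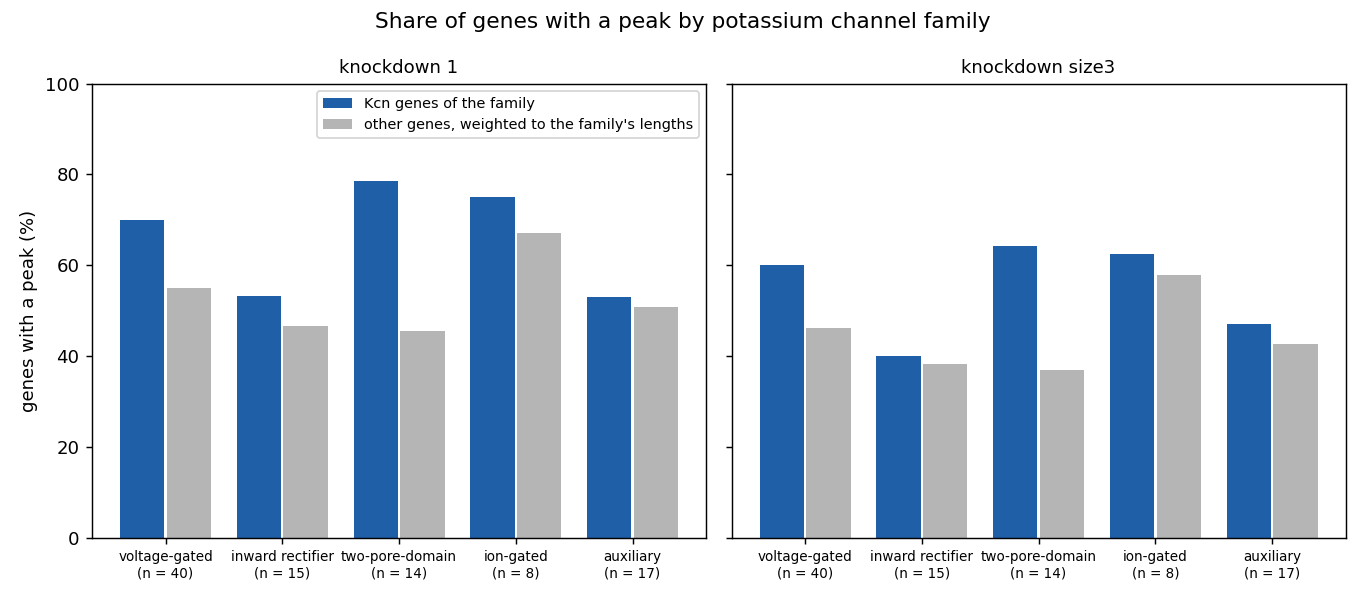
Percentage of genes with a peak (vertical axis) in 5 potassium channel families (horizontal axis), for the family (blue) and other protein-coding genes weighted to its length classes (grey), in knockdown 1 (left) and knockdown size3 (right). In both libraries shown, two-pore-domain genes stand furthest above their weighted comparison, at 78.6% against 45.6% in knockdown 1, and auxiliary genes lie close to theirs. In knockdown 2, not shown, two-pore-domain genes were at 0% against 7.81% and auxiliary genes at 29.4% against 15.1%.

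Among voltage-gated genes, Kcnq1 had the most peaks of any channel gene in a single library. It encodes the pore of a slow delayed rectifier current in heart and transporting epithelia and lies on chromosome 7 (143106877 to 143427050, GRCm38), with a length of 320 kb. It had 11, 0 and 7 peaks in knockdown 1, 2 and size3, against 0, 0 and 1 in control 1, 2 and size3. Peaks of knockdown 1 and knockdown size3 met at 1 place only, chr7:143191985-143193425, with fold enrichments of 4.05 (63 reads) and 6.54 (22 reads). The control size3 peak, at chr7:143393873-143394278, had a fold enrichment of 10.7 with 13 reads and a false discovery rate of 79.6%, and lay apart from every knockdown peak.

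The ether-a-go-go relatives, voltage-gated channels of nerve and heart, include long and short genes. Kcnh1, a voltage-gated gene of 321 kb, had 4, 2 and 6 peaks in knockdown 1, 2 and size3, against 0, 0 and 1 in control 1, 2 and size3. Kcnh8, of 376 kb, had 4, 3 and 2 in the knockdown libraries, against 1, 0 and 0 in the control libraries. Kcnh7, of 491 kb, had 0, 1 and 1, against 0, 0 and 1. Kcnh2, which encodes the hERG channel of cardiac repolarisation and spans 32.1 kb, had 3, 0 and 1, against 0, 0 and 1. At Kcnh2 the knockdown 1 and size3 peaks met at chr5:24336948-24338286, with fold enrichments of 4.69 (72 reads) and 5.53 (29 reads), and the control peak lay elsewhere in the gene.

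Kcna7, a short voltage-gated gene of 5.42 kb, had 1, 0 and 1 peaks in knockdown 1, 2 and size3 and none in the control libraries. Its 2 peaks met at chr7:45408328-45410258, with fold enrichments of 3.60 in knockdown 1 and 7.41 in knockdown size3. Length alone did not order the voltage-gated genes. Kcnd2, an A-type channel gene of 514 kb, had 2 peaks in knockdown 1, none in knockdown 2 or size3, and 1 in control 1. Kcnb2, a delayed rectifier gene, spans 437 kb and had 1, 2 and 1 peaks in knockdown 1, 2 and size3, against 0, 0 and 1 in control 1, 2 and size3, where its fold enrichment of 11.7 was the highest of any channel gene in that list. Kcnq5, which contributes to the neuronal M current, had 1 peak in each knockdown library over 564 kb and none in the control libraries.

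Among the calcium-, sodium- and pH-gated channels, Kcnma1 stood out by number. It encodes the large-conductance calcium-activated channel, whose currents are among those recorded in osteoblasts, and spans 713 kb of chromosome 14. It had 8, 2 and 6 peaks in knockdown 1, 2 and size3, and none in control 1, 2 or size3. Of these 16 peaks, only 1 pair met, at chr14:23974277-23975325, 29.5 kb inside the gene from its listed start, with fold enrichments of 6.07 (41 reads) in knockdown 1 and 8.26 (13 reads) in knockdown size3. A further knockdown size3 peak lay at the start, with its summit at -0.637 kb. The small-conductance genes Kcnn1, Kcnn2 and Kcnn3 had 2, 0 and 2, 2, 0 and 3, and 6, 0 and 3 peaks in knockdown 1, 2 and size3. Of those 3 genes, Kcnn3 also had 1 peak in control size3, and Kcnn1 and Kcnn2 each held a place shared by knockdown 1 and size3.

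Kcnt2, a sodium-activated channel gene of 368 kb, held the highest fold enrichments of 2 libraries. It had 0, 1 and 0 peaks in knockdown 1, 2 and size3, against 1, 0 and 0 in control 1, 2 and size3. The knockdown 2 peak had a fold enrichment of 23.4 from 10 reads, and the control 1 peak one of 6.42 from 26 reads, the highest at any channel gene in each list. Both had a false discovery rate of 100%, and they lay apart within the gene.

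None of the 15 inward rectifier genes had a control peak, a count of 0 that allows up to 20% of them, beside 6.29% of other genes weighted to their lengths in control size3. Kcnj6, a G-protein-gated rectifier gene of 253 kb, had 3, 0 and 9 peaks in knockdown 1, 2 and size3, the most of any channel gene in knockdown size3. None of its 3 knockdown 1 peaks met one of the 9, and 1 of the 3 had the highest fold enrichment at any channel gene in that list, 9.35. Kcnj9, of the same G-protein-gated group, had 3, 0 and 1, and its shared place, chr1:172317261-172319109, lies outside the gene and overlaps its neighbour Igsf8. Kcnj15, an inward rectifier gene of 42.7 kb, had 2 peaks in knockdown 2 and none in any other library.

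In the two-pore-domain family, the peaks were spread over many genes, with 15 peaks at 11 genes in knockdown 1 and 15 at 9 genes in knockdown size3. Kcnk1, a weakly conducting member, had 1, 0 and 2 peaks in knockdown 1, 2 and size3, among them the highest fold enrichment of knockdown size3 at any channel gene, 14.9 from 13 reads. Kcnk15, a member of the acid-sensitive branch, had 2, 0 and 1, and its knockdown 1 and size3 peaks met across the upper end of the gene at chr2:163857779-163859301. Kcnk12 had 1, 0 and 3 peaks in knockdown 1, 2 and size3 and, alone of this family, a peak in control size3.

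Auxiliary genes included the longest member. Kcnip4, which encodes a calcium-binding partner of A-type channels, had 3, 4 and 2 peaks in knockdown 1, 2 and size3 and none in the control libraries. A knockdown 1 and a knockdown size3 peak met, at chr5:49444278-49445184. Its relative Kcnip1 had 7, 0 and 6, without a shared place, and none in the control libraries. Kcnip3, a further relative, had 0, 1 and 2, against 0, 0 and 1 in control 1, 2 and size3. Kcnip2, chosen after its values were seen, had 1, 0 and 1 and none in the control libraries. Kcnab1, a cytoplasmic beta subunit of voltage-gated channels, had 2, 4 and 6, against 0, 0 and 1. Kcnmb2, a beta subunit of the channel that Kcnma1 encodes, had 5, 1 and 2, against 0, 0 and 1. Peaks at Kcnip1, Kcnip3, Kcnab1 and Kcnmb2 were spread along the span, and none of them overlapped between libraries. Kcnmb1 lies inside Kcnip1, so 2 knockdown 1 peaks counted at both genes, and Kcnmb1 was chosen after its values were seen.

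**Figure D4:**
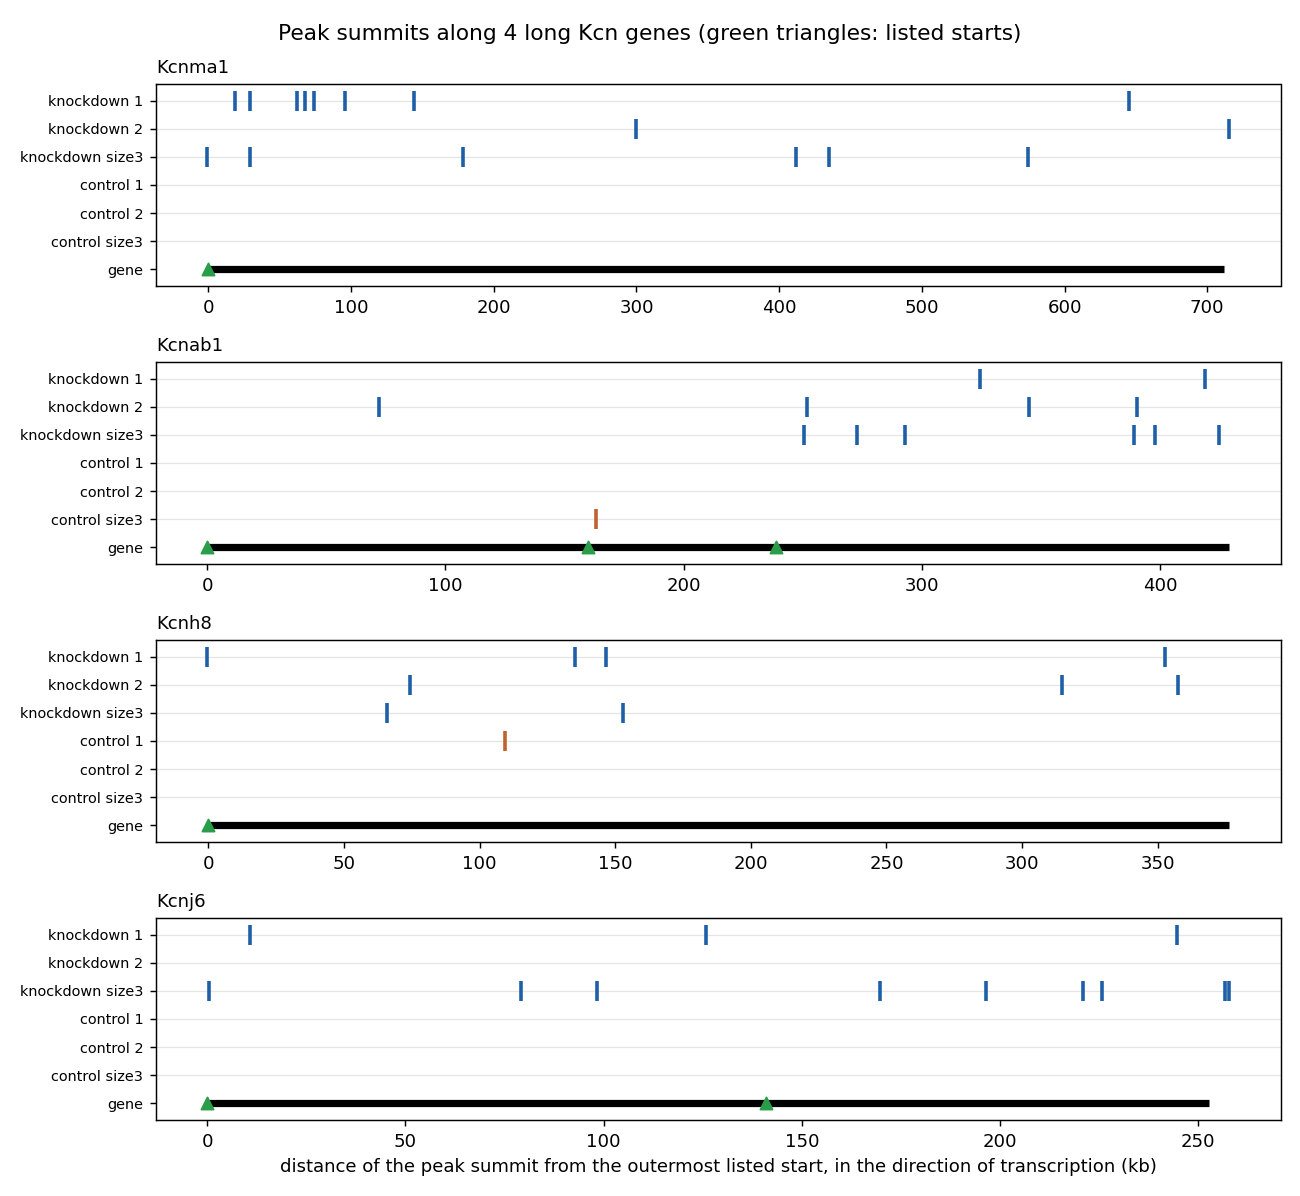
Summits of peaks (vertical bars) along Kcnma1, Kcnab1, Kcnh8 and Kcnj6, by distance in kb from the outermost listed start in the direction of transcription (horizontal axis), with 1 row per library, knockdown libraries above control libraries, the gene as a black bar and listed starts as triangles. Summits are spread along each gene, Kcnma1 and Kcnj6 have no control peak, and at Kcnma1 a pair of knockdown summits coincides, 29.5 kb from the start.

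Not every long gene was reached. In all, 20 of the 94 genes had no peak in any library (21.3%, beside 41.3% of all protein-coding genes), and 16 of these 20 were under 20 kb. The longest was Kcnc2, a fast delayed rectifier gene of 196 kb. It was followed by Kcnj3, a G-protein-gated rectifier gene of 186 kb, Kcnj10, the main rectifier gene of astrocytes (32.9 kb), Kcnj1, which encodes the renal channel ROMK (26.8 kb), and Kcnv1, a silent subunit gene (19.8 kb).

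Hits in several libraries were counted by gene and by place. Knockdown 1 and knockdown size3 both had a peak at 42 genes (44.7% of the 94, beside 23.4% of all genes), which is 67.7% of the knockdown 1 genes and 80.8% of the knockdown size3 genes. Over all protein-coding genes those shares were 53.7% and 66.1%. At 13 genes (13.8%, beside 8.52% of all genes) a region was called in at least 2 knockdown libraries, termed a consensus region, and at the other 29 of the 42 the peaks lay apart. The 13 are 31.0% of the 42, beside 35.6% for all genes with a peak in both of these libraries. The 14 consensus regions all came from knockdown 1 with knockdown size3, so the count was 0 without either of those libraries and 13 without knockdown 2. All 3 knockdown libraries had a peak at 8 genes (8.51%, beside 3.30% of all genes). All 8 were of 200 kb or more, a length that 19.1% of channel genes and 4.52% of all genes reach. The shares of all genes in this paragraph were not weighted by length. No channel gene had a control consensus region, beside 0.064% of all genes.

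The 15 genes with a peak in any control library all had a peak in a knockdown library as well. Over all protein-coding genes with a control peak that share was 85.3%, and 98.7% for those of 200 kb or more, which 9 of the 15 were. None of the 16 control peaks overlapped a knockdown peak, which allows up to 18.8% of them, beside 9.47% of the 1732 control peaks at any protein-coding gene. No channel gene had a peak in 2 control libraries, which allows up to 3.19% of the 94. Control 2 had no peak at any of them, and the share over all protein-coding genes is not given here.

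Peaks at gene starts were a small set and were all in knockdown libraries. RefSeq promoter entries (GRCm38.p6) gave a start for 69 of the 94 genes, and a peak within 1 kb of a listed start was found at 20 of them in knockdown 1 (29.0%, beside 18% of the 17491 genes with a listed start). In knockdown 2 there was 1 such gene (1.45%, beside 0.177%), and in knockdown size3 there were 11 (15.9%, beside 10.7%). In control 1, 2 and size3 there was none, beside 0.0229%, 0.00572% and 0.486% of all genes. The mean was 10.7 ± 9.50 genes in knockdown and 0 in every control library (n = 3 each), with an exact permutation p of 0.1, the smallest possible here, and differences of 20, 1 and 11 genes for labels 1, 2 and size3. Of all peaks at genes with a listed start, 18.7% in knockdown 1 and 13.3% in knockdown size3 lay at the start, fewer than the 23.7% and 18.03% over all protein-coding genes.

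Only 4 genes had a start peak in both knockdown 1 and knockdown size3 (20.0% of the start genes of knockdown 1 and 36.4% of those of knockdown size3), beside 18.7% and 31.3% over all protein-coding genes. They were Kcnc4, a fast inactivating voltage-gated gene, Kcnn1, a small-conductance calcium-activated gene, Kcnj4, a strong inward rectifier gene, and Kcns1, a silent subunit gene. At Kcnc4 the knockdown 1 peak was 3669 bp wide with 263 reads and a fold enrichment of 3.61, and the knockdown size3 peak was 967 bp wide with 24 reads and one of 4.54. At Kcnj4 the peaks held 398 reads (fold enrichment 4.51) in knockdown 1 and 90 reads (fold enrichment 5.50) in knockdown size3. At Kcnn1 they held 331 and 23 reads (2.64 and 5.78), and at Kcns1 82 and 20 reads (3.43 and 5.16). Start peaks of knockdown 1 were wider than its other peaks at genes with a listed start, with medians of 2439 bp and 995 bp, and had lower folds, with medians of 3.67 and 4.87.

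The promoters of these 4 genes are shown because both libraries had a start peak there. The knockdown size3 start peaks at Kcnj4 and Kcns1 fell short of the stretch shown, while those at Kcnc4 and Kcnn1 overlapped it. Start peaks of the other library overlapped all 4 stretches. Each runs 5′ to 3′ on the strand of the gene and covers 250 bases before and 50 bases after the start, from RefSeq (GRCm38.p6), with CG pairs in capitals. Kcnc4 is chr3:107458849-107459148 on the minus strand, Kcnj4 chr15:79505192-79505491 on the minus strand, Kcnn1 chr8:70863209-70863508 on the minus strand, from the outer of its 2 listed starts, and Kcns1 chr2:164171064-164171363 on the minus strand. They hold 17, 41, 13 and 22 CG pairs in that order. The start of Kcns1 is at the end of its gene span, and those of Kcnc4, Kcnj4 and Kcnn1 lie inside theirs.
Kcnc4: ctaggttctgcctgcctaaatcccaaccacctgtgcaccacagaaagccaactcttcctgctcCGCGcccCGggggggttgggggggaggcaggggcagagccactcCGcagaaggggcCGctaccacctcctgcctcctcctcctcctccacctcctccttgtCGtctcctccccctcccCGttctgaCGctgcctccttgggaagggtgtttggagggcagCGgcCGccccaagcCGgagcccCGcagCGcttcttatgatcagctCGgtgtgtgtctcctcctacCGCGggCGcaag
Kcnj4: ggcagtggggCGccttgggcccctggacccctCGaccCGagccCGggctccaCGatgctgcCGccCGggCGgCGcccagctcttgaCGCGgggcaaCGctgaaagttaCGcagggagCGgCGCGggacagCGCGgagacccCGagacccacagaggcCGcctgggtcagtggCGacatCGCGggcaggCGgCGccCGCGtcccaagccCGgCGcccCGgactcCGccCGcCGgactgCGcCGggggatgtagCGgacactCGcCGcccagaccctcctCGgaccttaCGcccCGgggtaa
Kcnn1: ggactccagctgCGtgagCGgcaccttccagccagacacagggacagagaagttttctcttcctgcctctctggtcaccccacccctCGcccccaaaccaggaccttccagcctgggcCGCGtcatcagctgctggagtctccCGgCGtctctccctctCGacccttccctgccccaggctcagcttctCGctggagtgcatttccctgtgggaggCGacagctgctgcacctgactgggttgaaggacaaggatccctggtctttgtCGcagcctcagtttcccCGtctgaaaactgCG
Kcns1: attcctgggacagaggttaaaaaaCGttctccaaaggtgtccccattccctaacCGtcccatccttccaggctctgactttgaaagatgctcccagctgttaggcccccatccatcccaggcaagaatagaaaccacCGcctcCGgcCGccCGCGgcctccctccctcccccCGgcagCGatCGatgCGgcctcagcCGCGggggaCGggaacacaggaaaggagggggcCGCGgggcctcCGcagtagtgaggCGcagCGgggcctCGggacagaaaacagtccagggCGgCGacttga

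For contrast, the promoter of Kcnj1, a gene with no peak in any library, and that of Kcnj15, where the only start peak of knockdown 2 lay (8 reads, summit at -0.82 kb from the start), hold 2 CG pairs each. Kcnj1 is shown as an example with few CG pairs, chosen after its values were seen, and Kcnj10, also without a peak, holds 21, more than Kcnc4 or Kcnn1. Kcnj1 is chr9:32393735-32394034 and Kcnj15 chr16:95257308-95257607, both on the plus strand, with CG pairs in capitals. The Kcnj1 stretch is at its only listed start and lies inside the gene span, which runs from 32372418 to 32399197.
Kcnj1: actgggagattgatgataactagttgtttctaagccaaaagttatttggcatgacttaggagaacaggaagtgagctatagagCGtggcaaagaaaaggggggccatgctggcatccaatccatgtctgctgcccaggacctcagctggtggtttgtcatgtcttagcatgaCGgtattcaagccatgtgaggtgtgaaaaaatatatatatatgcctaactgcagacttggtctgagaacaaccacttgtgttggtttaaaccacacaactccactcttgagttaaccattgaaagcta
Kcnj15: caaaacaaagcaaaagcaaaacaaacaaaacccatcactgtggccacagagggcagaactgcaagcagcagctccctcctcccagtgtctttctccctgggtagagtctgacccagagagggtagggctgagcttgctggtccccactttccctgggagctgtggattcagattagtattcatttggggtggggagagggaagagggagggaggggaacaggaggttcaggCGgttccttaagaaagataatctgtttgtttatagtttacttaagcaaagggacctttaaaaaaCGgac

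Starts with a peak held more CG pairs than starts without one, at channel genes as at other genes. The 32 listed channel promoters with a peak within 1 kb held a median of 20 CG pairs (range 1 to 49), and the 62 without one a median of 7 (range 0 to 41). Over all protein-coding genes the medians were 21 with a peak and 9 without. Median GC content was 64.0% at channel promoters with a peak and 55.5% without, and 62.7% and 54.0% over all protein-coding genes. The ranges overlapped widely, and Kcnmb1 had a start peak with 1 CG pair.

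**Figure D5:**
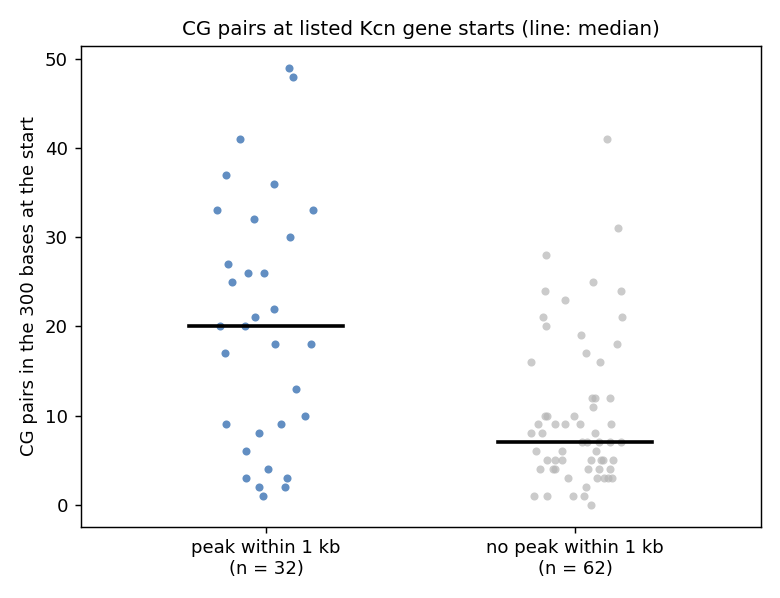
Number of CG pairs in the 300 bases at each listed Kcn gene start (vertical axis), for 32 starts with a peak within 1 kb in any library and 62 without, with the median as a line. The medians are 20 and 7, and both sets reach from few CG pairs to over 40.

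Motifs of factors near Wnt and cell-cycle control were rare at these starts, as they were over all protein-coding promoters. The E2F core TTCCCGC, searched on both strands, was in 3 of the 32 promoters with a peak (9.38%) and 1 of the 62 without (1.61%), beside 8.47% with and 5.12% without a peak among all 21262 protein-coding promoters. The E-box CACGTG was in 2 and 5 (6.25% and 8.06%), beside 9.38% and 7.32%, and either TCF/LEF form, CTTTGAT or CTTTGAA, in 1 and 3 (3.13% and 4.84%), beside 5.20% and 8.36%. The promoters with the E2F core were those of Kcna3, Kcna6 and Kcnh1 with a peak and of Kcnab1 without. A match describes these letters in this window and not a bound site. Kcna3, which encodes the main voltage-gated channel of T lymphocytes, had a knockdown 1 peak of 175 reads over its start and is the one channel promoter shown for this motif, chosen after its values were seen. It is chr3:107035912-107036211 on the plus strand, with matches to the motif or its reverse complement in capitals.
Kcna3: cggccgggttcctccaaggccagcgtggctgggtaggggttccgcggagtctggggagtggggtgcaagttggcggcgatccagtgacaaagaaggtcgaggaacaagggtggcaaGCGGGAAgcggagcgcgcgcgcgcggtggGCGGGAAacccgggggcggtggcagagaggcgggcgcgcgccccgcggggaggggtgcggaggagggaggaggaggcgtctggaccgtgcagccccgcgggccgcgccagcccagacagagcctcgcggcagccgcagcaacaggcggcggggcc

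Other starts had a peak in 1 library each. Kcnh8 and Kcnq5 had theirs in knockdown 1, with 90 and 182 reads and fold enrichments of 3.80 and 4.37. Kcnh1 had a knockdown size3 peak of 17 reads with its summit 0.631 kb after the start and a fold enrichment of 8.66. None of these 3 genes had a start peak in a control library.

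Neighbouring genes share some of these peaks. Of the 94 genes, 34 had another protein-coding gene within their gene or flank, and 17 of the 304 distinct peaks also lay inside another gene. Among the 60 genes with no neighbour, 38, 7 and 33 had a peak in knockdown 1, 2 and size3, against 3, 0 and 7 in control 1, 2 and size3. Over all protein-coding genes, with or without a neighbour, the shares were 43.7%, 7.95% and 35.4% in knockdown and 1.38%, 0.315% and 5.49% in control. No count of other genes without a neighbour is given here. Of the 306 assignments of a peak to a channel gene, 277 were inside the gene and 29 in the flank.

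Genes that work with or beside potassium channels, listed by function, were counted in the same way. Of 13 partners and relatives, 7, 4 and 8 had a peak in knockdown 1, 2 and size3, against 0, 0 and 2 in control 1, 2 and size3. Dpp6 and Dpp10, whose products associate with A-type channels, are long at 910 kb and 1514 kb. Dpp6 had 8, 1 and 12 peaks in the knockdown libraries, against 0, 0 and 3 in the control libraries, and Dpp10 had 2 in each knockdown library, against 0, 0 and 1. Of 14 sodium channel genes, 7, 0 and 8 had a peak in the knockdown libraries, against 0, 0 and 1. Of 10 calcium channel pore genes, 8, 2 and 9 had one, against 1, 0 and 3. Cacna1c, the main cardiac calcium channel pore, had 13, 0 and 8 peaks in knockdown 1, 2 and size3, against 1, 0 and 5 in control 1, 2 and size3, and Cacna1d had 8, 2 and 6, against 0, 0 and 1. Knockdown shares were 53.8%, 30.8% and 61.5% for partners, 50.0%, 0% and 57.1% for sodium channels and 80.0%, 20.0% and 90.0% for calcium channels. Over all protein-coding genes they were 43.7%, 7.95% and 35.4%. In control size3 these lists had 15.4%, 7.14% and 30.0%, beside 5.49% of all genes. Their median lengths were 24.0, 103 and 135 kb, against 17.2 kb over all genes, and these shares were not weighted by length.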

How the data were processed

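The data are 6 peak lists, 3 from MACF1 knockdown and 3 from control MC3T3-E1 cells, with groups taken from the sample titles. Per the submitters' processing notes, cutadapt, Bowtie2 and MACS 1.4.2 were used with GRCm38. Per the file headers, the authors called peaks library by library, each immunoprecipitate paired with 1 input, with a p cutoff of 1.00e-05 and a band width of 300 bp. Deposited counts are whole reads in a peak. The deposited score is the negative log10 of the p-value multiplied by 10, the deposited fold is a ratio over the local background, and the deposited false discovery rate is in percent. These belong to single peaks and only describe, rank or filter a list, and peak calls depend on depth and duplicates, which differed between libraries.

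Gene spans of 21883 protein-coding genes came from RefSeq (GRCm38.p6). A peak was assigned by an overlap of at least 1 bp with the gene or its 5 kb flank, and to a start within 1 kb of the first transcribed base in the promoter table. Shares carry 95% Wilson intervals, and a count of 0 is given a limit of 3 counts. Groups were compared by exact two-sided permutation over 20 assignments, with other genes weighted over 4 length classes (edges at 10, 50 and 200 kb). The genes named were, by rule, up to 12 with a consensus region, up to 8 with a control peak, the 3 with most peaks and the best fold in each library, up to 8 with a start peak, the 5 longest without peaks and up to 4 partner genes, and others are said to be chosen after their values were seen. Kcnk12, Kcnn3 and Kcna6 are also outside it. Some items that the rule names are left out of this text. The members and lists were chosen with earlier results of these data known. Alternatives were stricter peaks, equal list lengths, other windows, summits, other length weighting, the replicate label as a block and each library left out. The steps were tested on simulated data. Python 3.11.15, pandas 2.3.3, NumPy 2.4.6, SciPy 1.17.1 and Matplotlib 3.10.9 were used. Reads and signal were not analysed here.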

Additional observations from a re-analysis of the deposited data

How the results depend on the processing

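No difference changed sign under any alternative run, and no exact p fell below 0.1, the smallest that 20 assignments allow. For some alternatives the sign could not have changed. No control peak was left at a score of at least 100 or a false discovery rate of at most 5%. Differences in gene and peak counts could therefore not turn negative there. Some quantities depended on list length or on single libraries. The difference in channel genes with a peak was 37.7, but 7.67 among peaks with a score of at least 100 (18, 0 and 5 genes in knockdown 1, 2 and size3, and 0 in each control library), 1.67 at equal list lengths and 22.7 among genes with no neighbour, an alternative chosen after seeing the data. At equal list lengths the other differences were 0.86 in log2 peaks (exact permutation p = 0.7), 0.842 points in the share of peaks (p = 0.7), 1.397 points over other genes (p = 0.5) and 1.55 points over length-weighted genes (p = 0.3). The difference in genes with a start peak was 10.7, but 2.67 at that score and 1.33 at equal list lengths. The 13 genes with a knockdown consensus region were 1 at that score. The cause was not tested.

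Leaving out 1 library at a time gave 28 to 52 genes with a peak, 3.37 to 5.27 in log2 peaks, 0.148 to 0.444 points in the share of peaks, 10.53 to 18.2 points over other genes, 4.87 to 11.3 points over length-weighted genes and 6 to 15.5 genes with a start peak, with 6 without knockdown 1. Consensus genes ranged over 0 to 13 in knockdown and were 0 in control. At a false discovery rate of at most 5% no control peak was left at these genes, knockdown 2 had none either, the difference in genes with a peak was 32 and the share of peaks gave no value. With the label as a replicate block the differences stayed 37.7 genes and 7.36 points, with a sign-flip permutation p of 0.25, the smallest that 8 flips allow. The labels were not taken as pairs, since no same-label correlation of deviations passed 0.1 (r = -0.0379, 0.0710 and 0.0928 over 12843 genes for labels 1, 2 and size3). Knockdown size3 correlated best with control size3, and knockdown 1 and 2 did not with the control of their own label. In control lists 1 gene is 1.06% of the 94.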

Other observations

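Long noncoding genes named after potassium channel genes lay outside the 94. Their 5 peaks, all in knockdown libraries, are also counted above at Kcnq1, Kcnd3 or Kcnmb4. These genes were chosen after their values were seen. Kcnq1ot1, a transcript read against Kcnq1 and known for silencing imprinted neighbours on the paternal chromosome, spans chr7:143213111-143296547 and had a knockdown size3 peak across its start, at 143295959 to 143296700, with a fold enrichment of 6.30 from 23 reads. Knockdown 1 had 1 peak inside it, at 143262233 to 143262910, with a fold enrichment of 6.21 from 23 reads, and the peaks lay apart. Both peaks also count at Kcnq1. Kcnd3os, Kcnmb4os1 and Kcnmb4os2 each had 1 peak in knockdown 1. Only genes with a peak are named here, and the number of such genes without one is not given. No share over other genes is set beside the absence of control peaks, so it is not read as a trait of these genes.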
